A study of Mus musculus with 78 samples.

Results

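The long intergenic noncoding RNAs (lincRNAs) of mouse cerebral arteries were described here. The members are the rows annotated as lincRNA whose mean over all 78 libraries was at least 2 FPKM, fragments scaled to the length of the gene and the size of the library. This rule gave 119 members among 5559 lincRNA rows and 54532 rows in all. By the same floor, 9834 protein-coding rows and 10660 rows of every kind would have been kept. The members were thus chosen by their mean FPKM over all groups, so levels are given as a description, and differences between groups were measured apart from it. The arteries came from male wild-type C57Bl6 mice that ate ad libitum (AL) or under intermittent fasting (IF) for 3 months. They then had either a sham operation or bilateral common carotid artery stenosis (BCAS), in which both carotid arteries are narrowed and the brain receives less blood. Arteries were collected on day 1, 7, 14, 21 or 30. There were 20 sham AL, 19 sham IF, 19 BCAS AL and 20 BCAS IF libraries, with 4 in each group except BCAS AL day 1 and sham IF day 7, which had 3. The labels group libraries under day 7, while the treatment text does not list that day. The ages, the hours of fasting and the hour of collection are not given in the sources used here. Nothing states that each library is a separate animal, so p-values measure only the spread between libraries, which may be technical.

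LincRNAs are transcribed from their own promoters and lack a long conserved reading frame, and many but not all are spliced and polyadenylated like messenger RNAs. Some hold nuclear bodies together, some act as hosts from which small nucleolar RNAs or microRNAs are cut, and some bind proteins or microRNAs in the cytoplasm. Many have no known function. In vessels, lincRNAs of smooth muscle and endothelium have been linked to contractile identity and to growth.

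Several members are known for short sequences within them. Norad, listed as 2900097C17Rik (GRCm38 chr2:156388065-156392979, minus strand), is a cytoplasmic RNA that binds the Pumilio proteins. Its transcript of 4915 bases held 11 copies of the Pumilio element, searched on the transcript strand as TGTANATA. Of 8905 transcripts of 4000 to 6000 bases, Norad among them, 0.0337% held at least as many, and the median was 0. The longer Neat1 transcript held 4. Oip5os1, known as Cyrano and listed as 1700020I14Rik (chr2:119594297-119607502, plus strand), carries a site for miR-7 and directs the destruction of that microRNA. In the site, at transcript bases 2935 to 2959, 22 of the 23 microRNA bases found a partner. The site and the microRNA are shown because the pairing is what this RNA is known for. Capitals mark paired bases in the site and the seed, bases 2 to 8, in the microRNA.
Oip5os1 site: ACAACAAAAUCACcAauGUCUUCCA
mmu-miR-7a-5p: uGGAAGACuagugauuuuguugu

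Other members are the primary transcripts of microRNAs. For 4 of them, 1 of the 2 mature arms that RefSeq (GRCm38.p6) places in the host on the same strand is shown with the seed in capitals, the arm by which the host is best known. No seed was shared among them.
mmu-let-7d-5p in 6720427I07Rik: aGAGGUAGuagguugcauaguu
mmu-miR-142a-3p in Mir142hg: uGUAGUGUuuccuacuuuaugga
mmu-miR-101a-3p in E130102H24Rik: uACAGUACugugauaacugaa
mmu-miR-675-5p in H19: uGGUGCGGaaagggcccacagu
The libraries measure the host transcripts and not the mature microRNAs.

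The libraries held 14601572 to 25944175 fragments in genes. Of the smooth muscle markers, Acta2 had a mean of 5006 FPKM (1757 to 7630) and Myh11 420, while the lowest, Tagln, had 32.1. Cldn5, of brain endothelium, had 474 FPKM, while the lowest endothelial marker, Flt1, had 14.2. The neuronal Snap25 had 1.25 FPKM, while Stmn2, also neuronal, ran from 10.5 to 19.3. The other neuronal markers had means of at most 2.96 FPKM. The highest marker of fibroblasts and meninges was Slc6a13 at 233 FPKM, of macrophages and microglia C1qa at 246, and of astrocytes Gfap at 46.6. The lowest were Pdgfra at 14.2, Cx3cr1 at 7.17 and Slc1a2 at 5.44. Of the oligodendrocyte markers, Mbp ran from 1.89 to 102 FPKM and Mag averaged 0.992. Of the red blood cell markers, Hbb-bs ran from 11.7 to 1593 FPKM and Alas2 averaged 0.856. The pituitary Gh averaged 247 FPKM and ran from 0.366 to 4974. The members took a small share of the RNA measured, 0.248% ± 0.0162 (SD, n = 78) of the fragments in genes. Of the 119 members, 15 lay at 20 FPKM or above, 32 between 5 and 20, and 72 between 2 and 5. The highest was Gm13861 at 110 FPKM, which lies on the strand opposite to Cald1, the gene of the actin-binding protein caldesmon. Gm10076 followed at 77.6 FPKM. It matches Rpl41, a ribosomal protein gene, over 99.7% of its transcript at 99.5% identity, so its fragments may have been split with that gene. Bvht had 72.1, Snhg18 49.6, Tmem250-ps 37.7, Gm26532 37.4, Neat1 32.3, Epb41l4aos 30.1, Norad 29.9, Gm27202 28.9 and Malat1 25.6 FPKM. The members just inside the rule were Gm37494 at 2.05, Gm17028 at 2.04 and 2900076A07Rik at 2.02 FPKM. Just outside it were Meg3, an imprinted RNA, at 1.99, AC129328.1 at 1.99 and Gm29683 at 1.98 FPKM.

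**Figure D1:**
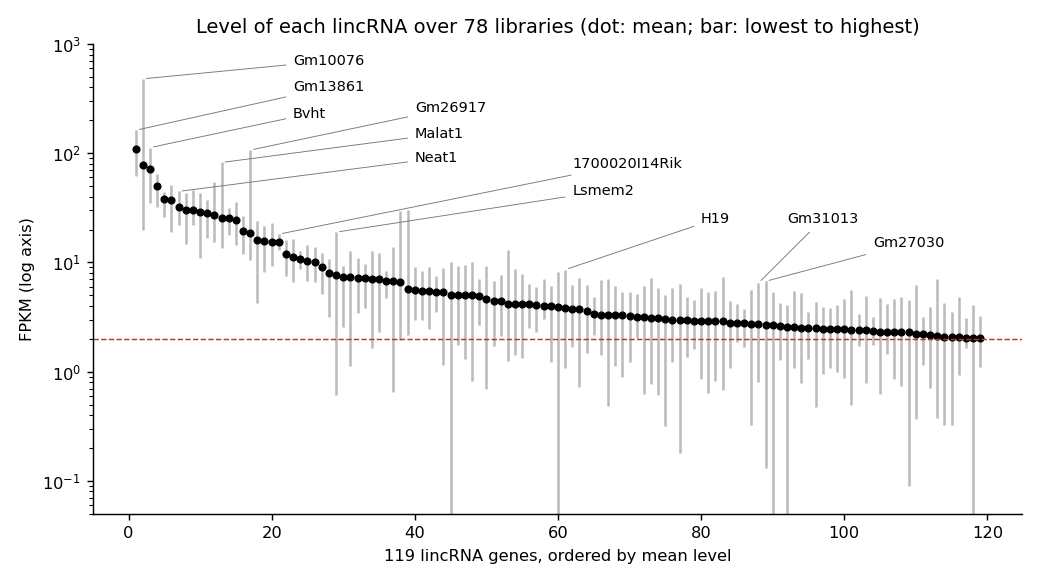
Level of each member in FPKM (log axis), ordered by its mean; dots are means and bars run from the lowest to the highest of 78 libraries, the dashed line is the floor of 2 FPKM, and bars that reach the foot of the axis go on to lower values or 0. Gm13861 has the highest mean (110 FPKM), and 72 of the 119 lie between 2 and 5 FPKM.

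The members were mostly short. Their median length was 1117 bases, from 252 to 20771 bases, and 20 had a single exon. The mean number of fragments per library ran from 15.3 to 13238, and 34 members had under 50. In 22 members the start lay within 1 kb of the start of a coding gene on the other strand, 12 shared exon bases with a coding gene, and 17 lay over 50 kb from any coding gene. Whether fragments were counted by strand is not given in the sources used here, so values of the members that share bases with a gene on the other strand are uncertain. Near-identical copies elsewhere (at least 95% identity over at least 50% of the transcript) were found for 7 members, Gm10076, Gm6712, Gm44899, AI480526, AC165953.2, Gm5914 and Norad. In GENCODE M21, 115 of the members are still lincRNAs. The row named Lsmem2 is annotated as lincRNA while it carries the name of a coding gene.

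Within groups the members varied more than coding genes of the same level. The residual SD of log2(FPKM + 1) had a median of 0.264 over the members and of 0.130 over coding rows from 2 FPKM. From 2 to 5 FPKM the medians were 0.299 and 0.140, from 5 to 20 they were 0.233 and 0.126, and from 20 they were 0.239 and 0.126. The members are also shorter, and the part of length in this was not tested.

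Differences were measured with limma on log2(FPKM + 1) over 15707 genes, which include all 119 members, with Benjamini-Hochberg adjustment over all of them and a threshold of 0.05 on the adjusted p. All errors of log2 differences are standard errors. In the mean of the 5 days, 32 members differed between IF and AL after sham, 24 higher and 8 lower under IF. That is 26.9% of the members, where 23.7% of all genes passed (percent higher 11.8, lower 11.9). The median difference over the members was 0.04, and 0.01 over all genes. After BCAS 19 members differed, 12 higher and 7 lower, or 16% of the members where 23.1% of all genes passed (percent higher 11.2, lower 11.9). These shares lie near or below the background, so the counts are no result about lincRNAs as a class. The fasting contrasts after sham and after BCAS have no library in common, but they use the same estimate of spread for each gene. A member of small spread is thus favoured in both contrasts. Both named 17 members, 53.1% of the sham list and 89.5% of the BCAS list, and all 17 moved the same way, 12 higher and 5 lower. Of the 34 members in either list, 32 had the same sign in both contrasts, the exceptions being Malat1 and Gm26910. Over all 119 members, 90 had the same sign. The overlap and the signs were not set against those of all genes. No member passed the test of the difference between the contrasts in the mean of the 5 days, by limma, where 0.0127% of all genes did, and 2 members had an unadjusted p under 0.05.

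**Figure D2:**
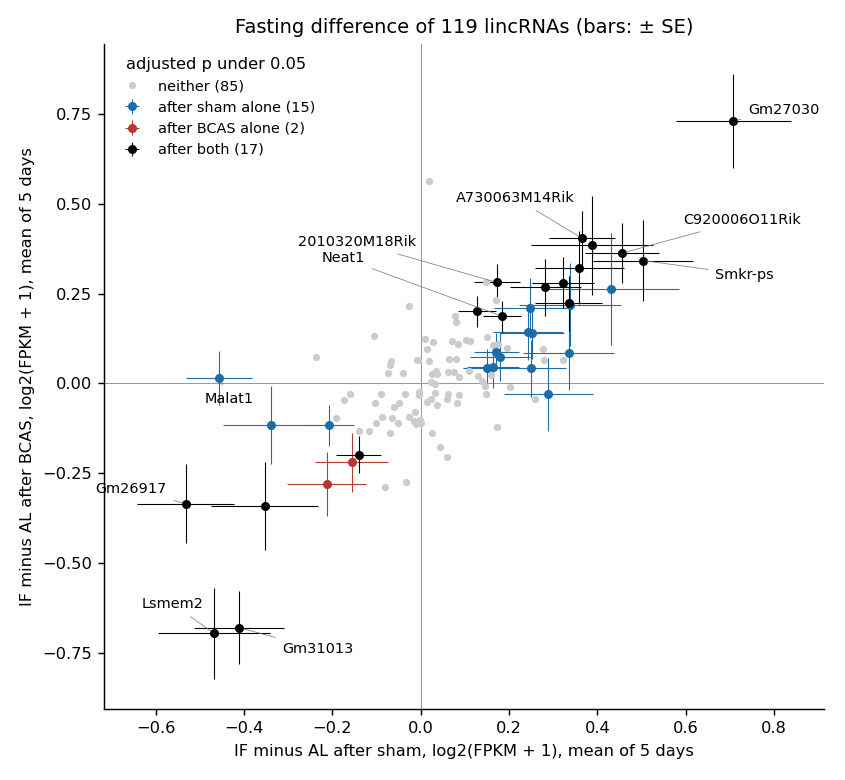
Difference between IF and AL of each member on the log2(FPKM + 1) scale, after sham on the x axis and after BCAS on the y axis, mean of 5 days; bars are standard errors, and colours mark where the adjusted p was under 0.05. Most labelled members have the same sign in both arms, while Malat1 is low after sham (-0.46) and near 0 after BCAS (0.02).

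Neat1 and Malat1 lie next to each other (Malat1 at chr19:5795690-5802672 and Neat1 at chr19:5824708-5845478, both on the minus strand) and are the RNAs of nuclear bodies. Neat1 is the scaffold on which paraspeckles form, and Malat1 collects in nuclear speckles beside splicing factors. Neat1 was higher under IF in both surgery arms. Its lowest, median and highest FPKM were 25.7, 29.6 and 35.0 in sham AL and 27.2, 33.3 and 39.5 in sham IF. They were 22.1, 31.7 and 36.2 in BCAS AL and 28.3, 35.8 and 44.7 in BCAS IF. The ranges overlapped while the medians were higher under IF. The log2 difference was 0.18 ± 0.04 after sham (adjusted p = 0.0009) and 0.19 ± 0.04 after BCAS (adjusted p = 0.00069). It was positive in 9 of the 10 comparisons made within a day and a surgery. These comparisons make up the averaged differences, here and for the members below, so their signs are no separate support. Neat1 is the member with the most fragments, a mean of 13238 per library. Its nearest coding gene Frmd8 had a difference of -0.02 after sham.

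The genes of paraspeckle proteins were not all higher where Neat1 was. Of all genes, 11.8% were higher and 11.9% lower under IF after sham, and 11.2% and 11.9% after BCAS. Of 12 paraspeckle genes measured, 3 were higher and 4 lower under IF after sham, with a median difference of -0.03, and 2 were higher and 5 lower after BCAS, with a median of -0.06. Sfpq, a core paraspeckle protein gene, fell by 0.28 after sham and by 0.36 after BCAS. Rbm14 fell by 0.40 and by 0.41. Ewsr1, an RNA-binding protein gene, rose by 0.08 and by 0.11. Of 17 nuclear speckle genes, 1 was higher and 5 lower after sham, and 3 higher and 6 lower after BCAS. Srsf5, a splicing factor gene, rose by 0.31 and by 0.21, while Srsf7 fell by 0.19 and by 0.22. Beside these, the 11 heat shock genes measured were all lower under IF in both arms, with medians of -0.58 and -0.55. Of 12 clock output genes 9 were higher and 3 lower in both arms. The part of the hour of collection in any of these differences was not tested.

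Malat1 stood apart on day 7 in sham AL. Its 4 libraries there read 48.2, 82.2, 67.3 and 79.9 FPKM. The 3 sham IF libraries of that day read 24.1, 17.9 and 17.7, the 4 BCAS AL libraries 21.9, 27.6, 15.4 and 22.9, and the 4 BCAS IF libraries 27.4, 17.1, 39.7 and 30.5. Each of the 4 sham AL libraries lay above every other library of day 7. On day 7 Malat1 was lower under IF after sham (log2 difference -1.74 ± 0.18, adjusted p = 7.6e-10) and lower after BCAS under AL (-1.61 ± 0.17, adjusted p = 6.3e-10). These contrasts share the sham AL day 7 libraries. The interaction of surgery and diet on day 7 was 2.07 ± 0.24 (adjusted p = 8.1e-08, where 0.0318% of all genes passed), tested after the day 7 values had been seen. On days 1, 14, 21 and 30 the Malat1 interaction lay between -0.01 and 0.12. Over the 5 days Malat1 was lower under IF after sham (-0.46 ± 0.08, adjusted p = 4.1e-06), and over the 4 other days the difference was -0.14 (adjusted p = 0.278).

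**Figure D3:**
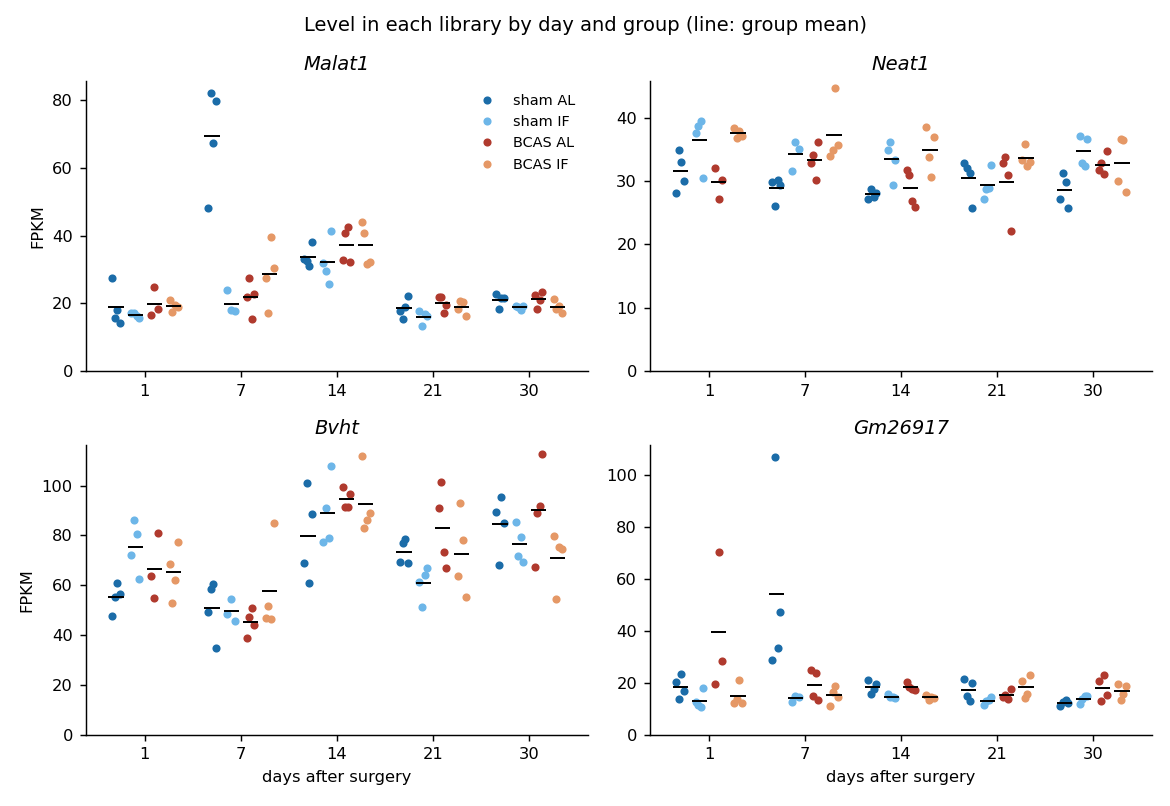
FPKM of Malat1, Neat1, Bvht and Gm26917 by days after surgery; each point is a library, coloured by arm, and lines are group means. For Malat1 the 4 sham AL libraries of day 7, at 48.2 to 82.2 FPKM, lie above all others.

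The same libraries differed in other measures. Sham AL libraries 2 and 4 of day 7, with BCAS AL library 2 of day 1, had at least 0.279% of their fragments in genes under 300 bases, where the others had at most 0.106%. Without these 3 libraries the day 7 differences of Malat1 were -1.48 (adjusted p = 3.49e-06) for IF after sham, -1.36 (adjusted p = 1.02e-05) for BCAS under AL and 1.82 (adjusted p = 1.25e-05) for the interaction. The 2 sham AL libraries of day 7 that remain in that fit, 1 and 3, also stood apart in noncoding RNAs and in a coding gene. The 18S ribosomal RNA row CT010467.1 had 213 and 186 FPKM in them, where the other arms on day 7 had 23.3 to 63.1. Rn7sk, a small nuclear RNA, had 13 and 11.2 FPKM against at most 6.99, and Lars2, a mitochondrial leucyl-tRNA synthetase gene, 12.6 and 11.7 FPKM against at most 4.66. All 4 sham AL libraries of day 7 thus carry these signs, and their part in the level of Malat1 was not tested. The mean log2(FPKM + 1) of the oligodendrocyte markers was 3.09 (2.05 to 4.35) in sham AL day 7 and 2.08 (1.77 to 2.38) in BCAS AL day 7. With the level of brain tissue markers as a covariate, the Malat1 differences were -1.77, -1.70 and 2.13, and all 3 passed. With only the groups compared in the fit, none of the 3 passed (adjusted p = 0.0753, 0.155 and 0.499).

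Gm26917 (chr17:39843013-39846341, plus strand) lies over a ribosomal RNA repeat, and fragments of ribosomal RNA cannot be told apart from its own. It read 28.9, 107, 33.3 and 47.4 FPKM in sham AL day 7 and 19.7, 70.3 and 28.5 in BCAS AL day 1. Its 3 highest libraries were those rich in fragments of short genes. On day 7 Gm26917 was lower under IF after sham (-1.68 ± 0.26, adjusted p = 2.4e-05) and lower after BCAS under AL (-1.30 ± 0.24, adjusted p = 0.0022). Without the 3 libraries the differences of day 7 became -1.09 (adjusted p = 0.0033) and -0.71 (adjusted p = 0.112). On day 1 after BCAS it was lower under IF (-1.18 ± 0.26, adjusted p = 0.0035), with -0.67 (adjusted p = 0.0729) without the 3 libraries. Over the 5 days the differences were -0.53 ± 0.11 after sham (adjusted p = 0.0002) and -0.33 ± 0.11 after BCAS (adjusted p = 0.02). The BCAS value lost its call without BCAS AL library 2 of day 1 (adjusted p = 0.0939), and over the 4 days other than day 7 the sham value was -0.24 (adjusted p = 0.169).

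Over the 4 days other than day 7, an average taken after the values had been seen, 14 members differed after sham and 20 after BCAS, or 11.8% and 16.8% of the members where 16.6% and 19.8% of all genes passed. Of the 32 sham calls 13 remained, and of the 19 BCAS calls 16 remained. A group of 9 members passed in both arms over 5 days and over 4, though the 4 days are part of the 5. Neat1, AU020206, Gm43672, Gm17586, C920006O11Rik, Smkr-ps, Gm27030 and A730063M14Rik were higher under IF, and Gm31013 was lower. With no filter on low values, AU020206 lost its sham call over the 5 days and Gm17586 its BCAS call.

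Gm27030 (chr8:121654054-121654517, plus strand) had the largest rise of the members in both arms. Its lowest, median and highest FPKM were 0.132, 1.63 and 4.01 in sham AL and 1.57, 3.32 and 6.37 in sham IF, and 0.578, 1.64 and 4.16 in BCAS AL and 1.99, 3.47 and 6.72 in BCAS IF. The median under IF lay above that under AL in both arms, with overlap. The differences on the log2 scale were 0.71 ± 0.13 (adjusted p = 3.2e-05) and 0.73 ± 0.13 (adjusted p = 1.6e-05). On day 1 after BCAS the groups did not overlap, with 0.578 to 1.37 FPKM under AL and 4.00 to 6.55 under IF (1.62 ± 0.31, adjusted p = 0.00061). The row is short and rests on a mean of 24.5 fragments per library. It also lies inside the coding locus Gm20388 on the same strand, so its fragments may belong to that locus.

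C920006O11Rik (chr9:78175914-78178879, plus strand) had a mean of 3.22 ± 0.771 FPKM (SD, n = 20) in sham AL. The other means were 4.82 ± 1.30 (n = 19) in sham IF, 3.67 ± 1.02 (n = 19) in BCAS AL and 4.89 ± 1.01 (n = 20) in BCAS IF. It was higher under IF by 0.46 ± 0.08 (adjusted p = 2.7e-05) and 0.36 ± 0.08 (adjusted p = 0.00067). A730063M14Rik (chr10:127070375-127074796, plus strand) ran from 0.865 to 2.67 FPKM in sham AL and from 1.79 to 3.45 in sham IF, and from 1.22 to 2.70 in BCAS AL and from 1.35 to 4.60 in BCAS IF. It was higher under IF in all 10 comparisons within a day and a surgery, and by 0.37 ± 0.08 (adjusted p = 0.00018) and 0.40 ± 0.08 (adjusted p = 3.2e-05) over the 5 days. Its start lies 111 bases from that of Tspan31, for which the differences were -0.15 (adjusted p = 0.24) and -0.17 (adjusted p = 0.19). Smkr-ps (chr6:29985329-29993776, plus strand) was likewise higher in all 10, and by 0.50 ± 0.11 (adjusted p = 0.00055) and 0.34 ± 0.11 (adjusted p = 0.02). It averaged 2.24 FPKM in sham AL, 3.53 in sham IF, 2.49 in BCAS AL and 3.41 in BCAS IF. Gm43672 averaged 6.26, 8.04, 6.60 and 8.12 FPKM in the same order, and AU020206 9.58, 10.5, 9.50 and 11.1. These are rises of 0.32 and 0.28 on the log2 scale for Gm43672 and of 0.13 and 0.20 for AU020206, whose sham call was lost without sham AL library 4 of day 21 (adjusted p = 0.0545).

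**Figure D4:**
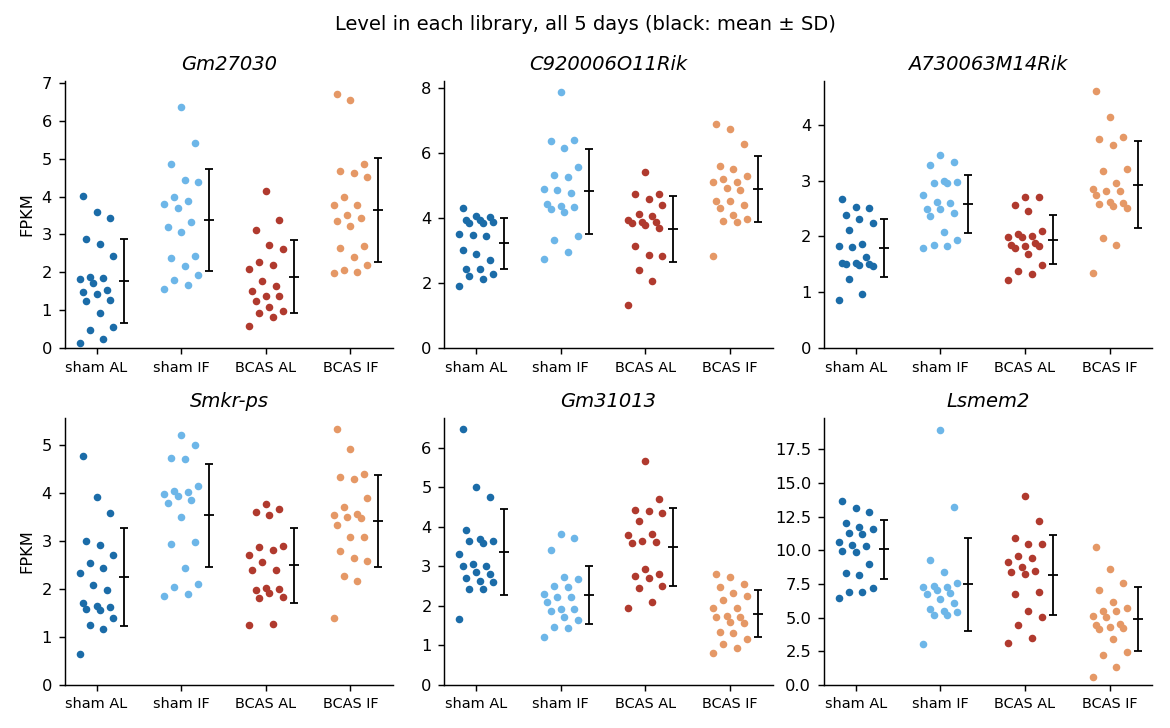
FPKM of 6 members named for fasting in the 4 arms, over all 5 days; each point is a library, and black marks are the arm mean ± SD. The means of the IF arms lie above those of the AL arms for Gm27030 (3.39 and 3.65 against 1.78 and 1.89 FPKM) and below them for Gm31013 (2.28 and 1.80 against 3.36 and 3.49 FPKM).

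Gm31013 (chr9:30722035-30781479, minus strand) had the smallest adjusted p after BCAS. Its lowest, median and highest FPKM were 1.66, 3.03 and 6.47 in sham AL and 1.21, 2.22 and 3.81 in sham IF, and 1.94, 3.60 and 5.66 in BCAS AL and 0.808, 1.72 and 2.79 in BCAS IF. It was lower under IF in all 10 comparisons within a day and a surgery, with log2 differences over the 5 days of -0.41 ± 0.10 (adjusted p = 0.0018) and -0.68 ± 0.10 (adjusted p = 5e-07). Its nearest coding gene, Adamts15, encodes a matrix-cutting protease and lies 117676 bases away. Adamts15 averaged 5.47 ± 0.663 FPKM (SD, n = 20) in sham AL. The other means were 4.04 ± 0.478 (n = 19) in sham IF, 6.46 ± 0.978 (n = 19) in BCAS AL and 4.34 ± 0.694 (n = 20) in BCAS IF. It was lower under IF, with log2 differences of -0.36 ± 0.04 (adjusted p = 1.6e-09) and -0.48 ± 0.04 (adjusted p = 1.2e-13). The lincRNA rests on a mean of 38.4 fragments per library.

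The row named Lsmem2 (chr9:107593841-107597075, minus strand) was lower under IF and lower after BCAS under IF. Its lowest, median and highest FPKM were 6.43, 10.4 and 13.6 in sham AL, 3.04, 6.85 and 18.9 in sham IF, 3.08, 8.44 and 14.0 in BCAS AL and 0.608, 4.78 and 10.2 in BCAS IF. The differences between IF and AL were -0.47 ± 0.13 after sham (adjusted p = 0.004) and -0.70 ± 0.13 after BCAS (adjusted p = 2.1e-05), and negative in all 10 comparisons within a day and a surgery. Over the 4 days other than day 7 the sham value was -0.36 (adjusted p = 0.0628). The row spans 369 bases of exon and rests on a mean of 55.1 fragments.

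Few members differed between BCAS and sham. Under AL no member passed in the mean of the 5 days by limma, where 0.987% of all genes did, and 7 members had an unadjusted p under 0.05. Under IF 1 member passed, where 0.758% of all genes did. It was Lsmem2, with a difference of -0.54 ± 0.13 (adjusted p = 0.019), which did not pass with only the groups compared in the fit (adjusted p = 0.0847) or over the 4 days other than day 7 (-0.56, adjusted p = 0.0742). By day under AL, 3 members passed on day 7, where 2.63% of all genes did: Malat1, Gm26917 and Lsmem2. None passed on day 1 (0.376% of all genes), day 14 (0.337%), day 21 (0%) or day 30 (0.357%). Lsmem2 read 11.3, 6.43, 9.94 and 8.96 FPKM in sham AL day 7 and 5.06, 3.46, 4.44 and 3.08 in BCAS AL day 7, with no overlap (-1.01 ± 0.28, adjusted p = 0.035). That call was lost in 5 of 8 fits that left out a library. Under IF 1 member passed on day 30, Lsmem2, where 0.0891% of all genes passed, and none on day 1 (0.00637%), day 7 (0.153%), day 14 (0%) or day 21 (0%). It read 18.9, 7.55, 7.27 and 8.38 FPKM after sham and 4.52, 4.45, 2.43 and 0.608 after BCAS (-1.58 ± 0.28, adjusted p = 0.002). Without BCAS IF library 4 the adjusted p was 0.0651.

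Neither of the vascular lincRNAs Bvht and Carmn passed in a contrast of diet or surgery averaged over the days. Bvht, known as Braveheart, is needed for mouse stem cells to enter the cardiovascular lineage and lies on chromosome 18 (chr18:61639542-61647472, plus strand). In sham AL it averaged 68.8 ± 17.2 FPKM (SD, n = 20), against 71.3 ± 15.8 (n = 19) in sham IF, 76.5 ± 22.0 (n = 19) in BCAS AL and 71.8 ± 17.4 (n = 20) in BCAS IF. Its differences between IF and AL were 0.04 ± 0.08 after sham and -0.06 ± 0.08 after BCAS. Carmn, a smooth muscle RNA and the host of miR-143 and miR-145, averaged 2.19, 2.34, 2.12 and 2.23 FPKM in the 4 arms in the same order, with differences of 0.06 and 0.03 between IF and AL.

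Bvht did differ between days. Over the 4 arms its lowest, median and highest FPKM were 47.7, 62.5 and 86.2 on day 1, 34.9, 48.6 and 85.1 on day 7, 61.0, 90.2 and 112 on day 14, 51.2, 69.1 and 101 on day 21, and 54.5, 79.5 and 113 on day 30. Day 7 was the lowest and day 14 the highest by the median. The F test over days passed in all 4 arms (adjusted p = 0.0027 in sham AL, 0.024 in sham IF, 8.5e-05 in BCAS AL and 0.041 in BCAS IF). It did not pass in BCAS IF with no filter on low values, nor in sham AL and BCAS IF with only the libraries of the arm in the fit. The smooth muscle markers were also lower on day 7, with a mean log2(FPKM + 1) of 7.54 ± 0.63 (SD, n = 4) in sham AL. The arm means over all days were at least 7.92. Carmn, also a smooth muscle RNA, had its highest group mean in BCAS AL day 7 (3.46 FPKM). Its lowest was in BCAS IF day 14 (1.32 FPKM). The part of smooth muscle content in the change of Bvht was not tested, and in bulk tissue fewer cells of a type and less RNA per cell cannot be told apart.

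Malat1 was the other member to pass over days in all 4 arms (adjusted p = 1.9e-13, 0.0012, 0.00092 and 0.00017 in the same order). Outside sham AL day 7 it was highest on day 14, with 25.8 to 44.2 FPKM over the 4 arms and a median of 32.8, where the medians were 17.5 on day 1, 18.1 on day 21 and 19.3 on day 30. In sham AL 20 members passed over days, 16.8% where 17.3% of all genes did. In sham IF it was 4 (3.36% and 1.88%), in BCAS AL 10 (8.4% and 4.48%) and in BCAS IF 6 (5.04% and 5.23%). Cyrano passed in 3 arms (adjusted p = 0.034 in sham AL, 0.021 in BCAS AL and 0.043 in BCAS IF) with a small change. Each of these calls was lost under an alternative, in sham AL with no filter and with only that arm in the fit, in BCAS AL with limma-voom, and in BCAS IF with each of these and with the brain covariate. In BCAS AL it ran from 17.5 to 18.2 FPKM on day 14 and from 14.6 to 15.1 on day 1, its medians over arms being 16.7 and 14.6. H19, an imprinted RNA read from the maternal copy, passed over days in sham IF (adjusted p = 0.036) and was highest there on day 21, at 6.24 ± 2.11 FPKM (SD, n = 4). That call was lost with no filter, with limma-voom and with only that arm in the fit. The day of collection and the handling of that day's libraries cannot be told apart.

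Among the RNAs that host small nucleolar RNAs, Snhg20 and Snhg12 passed in the mean of the 5 days. Snhg20 averaged 18.2 ± 2.74 FPKM (SD, n = 20) in sham AL, 20.6 ± 2.18 (n = 19) in sham IF, 19 ± 2.53 (n = 19) in BCAS AL and 20.2 ± 2.25 (n = 20) in BCAS IF. It rose by 0.17 ± 0.05 under IF after sham (adjusted p = 0.0099) and did not pass after BCAS. The sham call was lost without the 3 libraries rich in short genes (0.11, adjusted p = 0.0896) and over the 4 days other than day 7 (0.14, adjusted p = 0.0717). Snhg12 rose by 0.16 ± 0.06 after sham (adjusted p = 0.036), a call lost without any 1 of 9 libraries. Snhg18 averaged 49.1, 48.3, 52.6 and 48.7 FPKM and did not pass in either contrast of diet. Among the microRNA hosts, E130102H24Rik, the host of miR-101a, was higher under IF on day 1 after BCAS (0.75 ± 0.19, adjusted p = 0.015), where 4.37% of all genes passed. That call was lost without any 1 of 3 libraries. Mir142hg, a host transcript of blood cells, averaged 6.61, 7.39, 7.41 and 7.77 FPKM and 6720427I07Rik, the host of let-7d, 10.5, 10.5, 10.4 and 10.1 FPKM. Neither passed in a contrast of diet or surgery averaged over days. Norad averaged 31.7, 29.7, 30.1 and 28.2 FPKM, with differences between IF and AL of -0.09 ± 0.05 in both arms that did not pass.

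Of the other members that passed in both arms in the mean of 5 days, C230035I16Rik rose by 0.36 and 0.32, 1700096K18Rik by 0.28 and 0.27 and Gm44386 by 0.39 and 0.38. Dubr, which acts in the differentiation of mouse myoblasts, was lower (-0.14 and -0.20), as was 0610043K17Rik (-0.35 and -0.34). After sham, rises of 0.15 to 0.43 passed for AC163032.1, Gm12827, 2610035D17Rik, 1700086O06Rik, 2700046G09Rik, 1010001B22Rik, Gm26910, AI480526, 1810044D09Rik and 4930516B21Rik, and D930016D06Rik (-0.21) and Gm26664 (-0.34) were lower. After BCAS, Gm48968 (-0.28) and Gm13861 (-0.22) were lower. On single days after sham 1 member passed on day 1 (Gm48968, -0.85, where 3.67% of all genes passed), 10 on day 7 (9.05%), 4 on day 14 (4.39%), none on day 21 (0.382%) and 3 on day 30 (4.82%). The 10 calls of day 7 fell to 2 without the 3 libraries rich in short genes, to 4 with no filter and to 0 with only the groups compared. The day 14 members were A730063M14Rik (0.79), Gm27030 (1.00), 1700096K18Rik (0.59) and C920006O11Rik, and those of day 30 were Smkr-ps (1.04), Gm11636 (0.88) and AI480526 (0.38). After BCAS 5 passed on day 1, where 4.37% of all genes passed: Gm27030, E130102H24Rik, Gm26917, Gm48968 and Gm31013. Of these, Gm26917, Gm48968 and Gm31013 were lost without the 3 libraries rich in short genes. On day 14 after BCAS 3 passed (C920006O11Rik 0.70, Gm31013 -0.85 and D730003I15Rik -0.46, where 5.67% of all genes passed). On day 30 after BCAS 1 passed (Lsmem2 -1.34, where 1.35% passed), and none on day 7 (2.25%) or day 21 (0.802%). The ratio of the highest to the lowest group mean was 6.33 for Gm27030, 4.73 for Gm10076, 4.40 for Gm26917, 4.31 for Malat1 and 4.23 for Gm49539.

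Some of these calls rest on single libraries. The day 1 call of Gm48968 was lost without sham AL library 1 (adjusted p = 0.0586), the day 7 call of Gm27030 without sham IF library 3 (adjusted p = 0.0713) and the day 30 call of Lsmem2 between IF and AL without BCAS IF library 4 (adjusted p = 0.0690). The day 14 calls of Gm27030, 1700096K18Rik, C920006O11Rik after BCAS, Gm31013 and D730003I15Rik and the day 30 calls of Gm11636 and AI480526 were each lost without any 1 of 2 to 6 libraries. Over the 5 days the same held for Gm44386, 0610043K17Rik, Dubr after sham, 1010001B22Rik, Gm26910, AI480526, 1810044D09Rik, 2700046G09Rik, 4930516B21Rik and Gm13861, without any 1 of 3 to 23 libraries.

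Members that share a promoter region with a coding gene moved with it in some pairs and against it in others. Of the 22 divergent pairs, 21 had a measured coding gene. After sham 8 of the lincRNAs and 7 of the coding genes passed, where 23.7% of all genes did, 3 pairs did so on both sides, and 1 of these 3 moved the same way. After BCAS 4 lincRNAs and 3 coding genes passed, where 23.1% of all genes did, 2 pairs on both sides, and 1 of them moved the same way. The difference had the same sign in 7 of 21 pairs after sham and in 11 of 21 after BCAS.

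**Figure D5:**
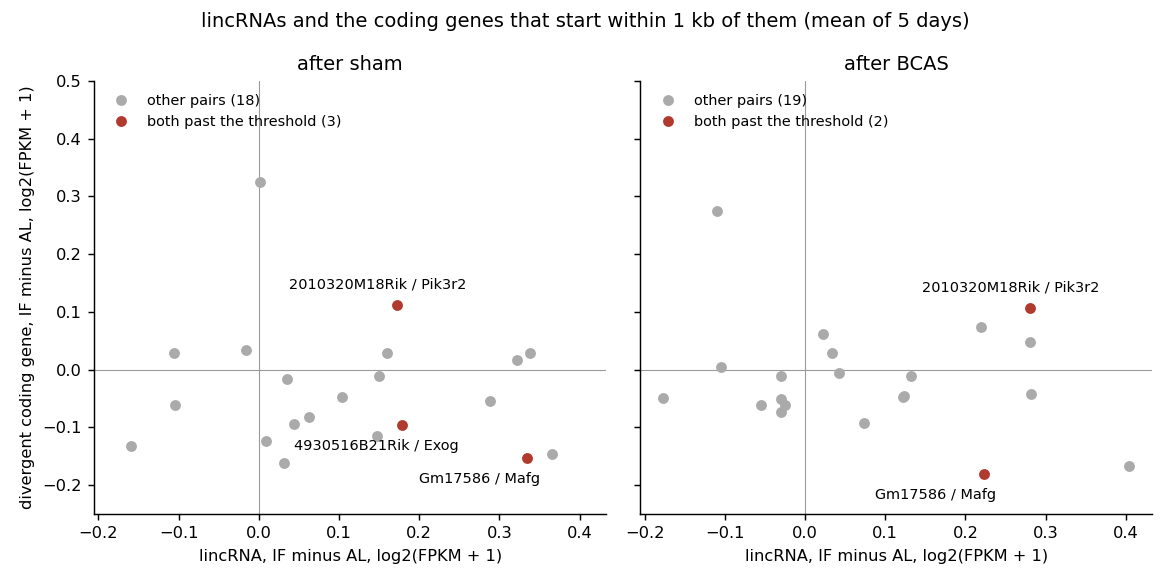
Difference between IF and AL (log2(FPKM + 1), mean of 5 days) of each divergent lincRNA on the x axis and its coding partner on the y axis, after sham and after BCAS; red pairs passed on both sides. 2010320M18Rik and Pik3r2 are both above 0, while Gm17586 is above 0 and Mafg below it.

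The pairs that passed in both arms are 2010320M18Rik with Pik3r2, a regulatory subunit gene of phosphoinositide 3-kinase, and Gm17586 with Mafg, a small Maf transcription factor gene. 2010320M18Rik had lowest, median and highest FPKM of 8.19, 14.4 and 17.7 in sham AL, 13.1, 16.5 and 19.6 in sham IF, 12.0, 14.1 and 18.3 in BCAS AL and 13.5, 17.5 and 21.4 in BCAS IF. It rose under IF by 0.17 ± 0.05 (adjusted p = 0.011) and 0.28 ± 0.05 (adjusted p = 3.2e-05), and Pik3r2, whose start lies 102 bases away, rose by 0.11 (adjusted p = 0.0037) and 0.11 (adjusted p = 0.0054). Over the 4 days other than day 7 the sham difference of 2010320M18Rik was 0.14 (adjusted p = 0.0836). Gm17586 rose by 0.33 ± 0.08 (adjusted p = 0.00072) and 0.22 ± 0.08 (adjusted p = 0.027), while Mafg, 168 bases away, was lower, with differences of -0.15 (adjusted p = 0.00022) and -0.18 (adjusted p = 1.1e-05). The after-BCAS call of Gm17586 was lost without any 1 of 3 libraries. The third pair of the sham arm was 4930516B21Rik (0.18, adjusted p = 0.046) with Exog (-0.10, adjusted p = 0.042), 113 bases apart.

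The promoter windows of these lincRNAs from RefSeq (GRCm38.p6, 300 bases, plus strand) are shown because both genes of each pair start within or beside them. That of 2010320M18Rik lies at chr8:70776612-70776911 and that of Gm17586 at chr11:120633500-120633799. Capitals mark an E-box, searched as CACGTG on both strands.
2010320M18Rik: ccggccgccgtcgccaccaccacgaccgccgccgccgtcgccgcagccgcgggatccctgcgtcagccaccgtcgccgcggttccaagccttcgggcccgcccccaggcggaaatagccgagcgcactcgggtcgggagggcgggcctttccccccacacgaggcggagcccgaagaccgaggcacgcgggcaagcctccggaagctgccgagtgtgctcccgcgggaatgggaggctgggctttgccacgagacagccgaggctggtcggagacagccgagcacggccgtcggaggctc
Gm17586: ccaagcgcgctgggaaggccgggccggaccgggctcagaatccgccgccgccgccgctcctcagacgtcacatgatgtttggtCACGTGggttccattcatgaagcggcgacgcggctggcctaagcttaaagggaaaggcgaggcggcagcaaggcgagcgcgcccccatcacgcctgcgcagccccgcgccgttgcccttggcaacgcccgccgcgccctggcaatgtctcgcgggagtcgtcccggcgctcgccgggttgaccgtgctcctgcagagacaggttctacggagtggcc
The windows held 74.7% and 69.7% G and C and 43 and 39 CpG. The median count of CpG was 36 over 13 divergent members with a window, 9.5 over 46 other members and 7 over all 27025 windows. The E-box was in the Gm17586 window at base 84, and 7.24% of all windows and 6.78% of the 59 member windows held 1. A match of letters says nothing of whether a factor binds there.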

How the data were processed

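RNA of cerebral arteries was sequenced in 78 libraries. The deposited table holds FPKM per gene, made by the authors, with the gene length beside it. The aligner, counter, build and annotation are not given in the sources used here; DESeq 1.10.1 is named without a role, per the submitters' processing notes. Of the IDs, 54495 were found in GENCODE M21 (GRCm38), 98.3% at the same coordinates. Multiplying FPKM by length gave whole fragments for 100% of values under 1000 fragments (tolerance 0.05), and 14601572 to 25944175 fragments per library. Main results come from limma 3.58.1 (trend and robust; R 4.3.3) on log2(FPKM + 1), with 20 group means over all 78 libraries, keeping each gene that reached 1 FPKM in 3 or more libraries. Tests are two-sided.

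The members, gene lists and named genes were chosen with earlier results of these data known. Named were the 10 members of highest level, those past the threshold in a contrast averaged over days, up to 3 of the smallest p for each single-day contrast and each F test over days, the 5 with the largest ratio of group means, members with a known role, the members at the edge of the rule, and the nearest coding genes. Alternatives were other size factors, a pseudocount of 0.1, no filter, limma-voom on recovered fragments, a brain tissue covariate, fits on only the groups compared, a floor of 1 FPKM for members, leaving out each library or the 3 libraries rich in short genes, and leaving out day 7. On simulated data for IF against AL after sham, over 15707 genes, 94% of changes of 0.5 and 99% of changes of 1 on the log2 scale were recovered, with 8 false calls. The members have a larger residual SD than coding genes (medians 0.264 and 0.130), and many of their differences were under 0.5. These rates therefore do not give the recovery for the members. Promoters and microRNAs are from RefSeq, and 59 of the 119 members matched a promoter. Copies were sought with blastn 2.17.0.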

Additional observations from a re-analysis of the deposited data

Results flagged for a closer look

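Sets of 1 member in the 4 libraries of 1 group were tested for a library far from the others. Of 62 such sets 3 were picked out. That is about what chance gives at 1 in 20, though the sets share libraries and are not independent. Lsmem2 in sham IF day 30 read 18.9 FPKM in library 1 and 7.27 to 8.38 in the others. 2310040G24Rik in sham AL day 7 read 4.12 FPKM in library 1 and 1.69 to 2.07 in the others. A730063M14Rik in sham AL day 14 read 0.973 FPKM in library 1 and 1.50 to 1.52 in the others. The Malat1 interaction of surgery and diet on day 7 was 2.07 on the log2 scale by limma, tested after the values had been seen. The sham AL libraries of that day, where Malat1 was highest, also differed in other measures. The interaction did not pass with only the groups compared in the fit.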

How the results depend on the processing

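No paired analysis was possible because the labels carry no replicate numbers shared between groups. As reported, the counts of members past the threshold were 32 (IF against AL after sham), 19 (after BCAS), 0 and 1 (BCAS under AL and IF), 3, 1, 18 and 9 on single days in the order BCAS under AL, BCAS under IF, IF after sham and IF after BCAS, and 20, 4, 10 and 6 over days in sham AL, sham IF, BCAS AL and BCAS IF. With no filter they were 21 for IF after sham, 7 for its single days, and 8, 2, 5 and 3 over days. With the brain covariate 13 passed over days in sham AL, and with limma-voom 12. Without the 3 libraries rich in short genes, 1 passed on single days for BCAS under AL, 5 over days in sham AL and 10 in BCAS IF. With members from 1 FPKM there were 221 members, so these counts cannot be set directly against those of the 119. For BCAS under AL and IF the counts were 1 and 2. For IF after sham and after BCAS they were 50 and 37, where 23.7% and 23.1% of all genes passed. On the single days of IF they were 38 and 22, and 33 passed over days in sham AL. With only the groups compared, they were 0 for BCAS under IF, 0 and 0 on single days of BCAS, 6 on single days of IF after sham, and 2 and 2 over days in sham AL and sham IF. Without day 7, 0 passed for BCAS under IF and 14 for IF after sham.

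Leaving out 1 library gave 0 to 1 for BCAS under AL, 1 to 1 under IF, 23 to 36 for IF after sham, 16 to 22 after BCAS and 0 to 1 for the interaction. Single days gave 2 to 9 (9 without sham AL day 7 library 1) for BCAS under AL, 0 to 1 under IF, 11 to 36 (without sham IF day 7 libraries 3 and 1) for IF after sham and 6 to 13 after BCAS. Days gave 5 to 35 (without sham AL day 7 libraries 4 and 1), 2 to 4, 5 to 11 (5 without BCAS AL day 14 library 1) and 3 to 7 in the 4 arms. Single calls were followed for 74 cases, every call averaged over days and up to 3 of the smallest p in each single-day contrast. The weaker single-day calls are not among the 74, so the shares kept do not hold for them. Of the 74, 44 were kept whichever library was left out. All 74 were kept with other size factors, 71 with the covariate, 70 with limma-voom and 72 with the pseudocount of 0.1. It was 63 without the 3 libraries, 55 with no filter and 52 with only the groups compared. No value reversed its direction in any of these. The 34 members with a mean under 50 fragments per library have the least precise values.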
